A study of Homo sapiens with 5 samples.

Results

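Neuropeptides are short signalling molecules that neurons cut from larger precursor proteins, pack into dense-core granules and release to act on receptors of neighbouring cells. In the forebrain, precursors such as somatostatin and vasoactive intestinal peptide, together with calcium-binding proteins such as calretinin, are used to tell subtypes of inhibitory interneuron apart, but several of them are also made by excitatory neurons or by progenitor cells. The 9 genes described here are the precursor genes SST (somatostatin), NTS (neurotensin), NPY (neuropeptide Y), PENK (proenkephalin, the source of enkephalin opioid peptides), VIP (vasoactive intestinal peptide) and TAC1 (the source of substance P and neurokinin A), and the calcium-binding protein genes CALB1 (calbindin), CALB2 (calretinin) and SCGN (secretagogin). They are 9 of 32732 genes listed in the annotations of all libraries, and all 9 were followed in every library and in 3 classes of cells set by other genes.

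Single cells were sequenced from brain organoids of H9 AAVS-ChR2-EYFP, a derivative of the established human embryonic stem cell line H9 that carries a light-gated channel and a yellow fluorescent protein. D0 was organoids at day 42 of culture, the day of transplantation, and HIP_2MPT, PFC_2MPT, HIP_4MPT and PFC_4MPT were organoids grafted into the hippocampus (HIP) or prefrontal cortex (PFC) of immunodeficient SCID mice and collected 2 or 4 months post transplantation (MPT). Each condition had 1 library, pooled from several organoids (D0) or several mice (grafts). How the mice were divided among the graft libraries is not given, so the spread between animals could not be measured. D0 was dissociated with another enzyme and counted with another Cell Ranger release and annotation than the grafts. Its cells were also 2 or 4 months younger than those of the grafts. None of these differences, age included, can be told apart from transplantation. All cells come from 1 line, so nothing here covers differences between donors.

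After filters on species and quality, 34390 human cells remained, of which D0 gave 4885. HIP_2MPT gave 8277 and PFC_2MPT 5952 cells, HIP_4MPT 6913 and PFC_4MPT 8363. The summed depth ran from 11192237 unique molecular identifiers (UMIs, counted RNA molecules) in HIP_2MPT to 55892222 in D0, and the median cell held 9847 UMIs in D0 against 1253 to 2759 in grafts. Levels are given as CPM, the UMIs of a gene for every 1000000 summed UMIs, with exact Poisson intervals that cover counting error only. A level summed over all cells cannot tell fewer cells of a type from less RNA per cell. No pair of libraries shared more than 0.289% of the cell barcodes of the smaller one.

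Clusters were formed without the 9 genes and were named from other markers. The glutamatergic-like class held 322 cells of D0 and 3457 to 6065 cells of each graft library. The inhibitory-like class held 77 cells of D0, 12 of HIP_2MPT and 18 of PFC_2MPT, with 243 of HIP_4MPT and 1069 of PFC_4MPT, which was 1.58, 0.145, 0.302, 3.52 and 12.8% of the cells. The intermediate-progenitor-like class, cells that divide to give excitatory neurons, held 84, 853, 607, 604 and 413 cells in the same order. The 8 inhibitory markers used in naming the clusters were GAD1, GAD2, SLC32A1 and 5 DLX genes. They summed to 3902 CPM in the inhibitory-like cells of D0, 4028 of HIP_4MPT and 3602 of PFC_4MPT. Such sums follow from the naming and are no check on it. In glutamatergic-like cells the same sum was 1.06 to 79.2 CPM in grafts, with the highest value in PFC_4MPT, and 104 CPM in D0. Most neurons of D0 fell outside these classes, in a cluster of 1165 D0 cells and 5 graft cells that carried markers of both neuron types and is called the mixed D0 cluster below. Its glutamatergic marker sum was larger than its inhibitory one, as given below.

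Over all human cells the 9 genes split into 3 patterns. SST, NTS, CALB1, CALB2, VIP and TAC1 were highest in D0, PENK was higher in every graft library than in D0, and NPY and SCGN were highest in PFC_4MPT. The plot of levels by library shows each value.

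**Figure D1:**
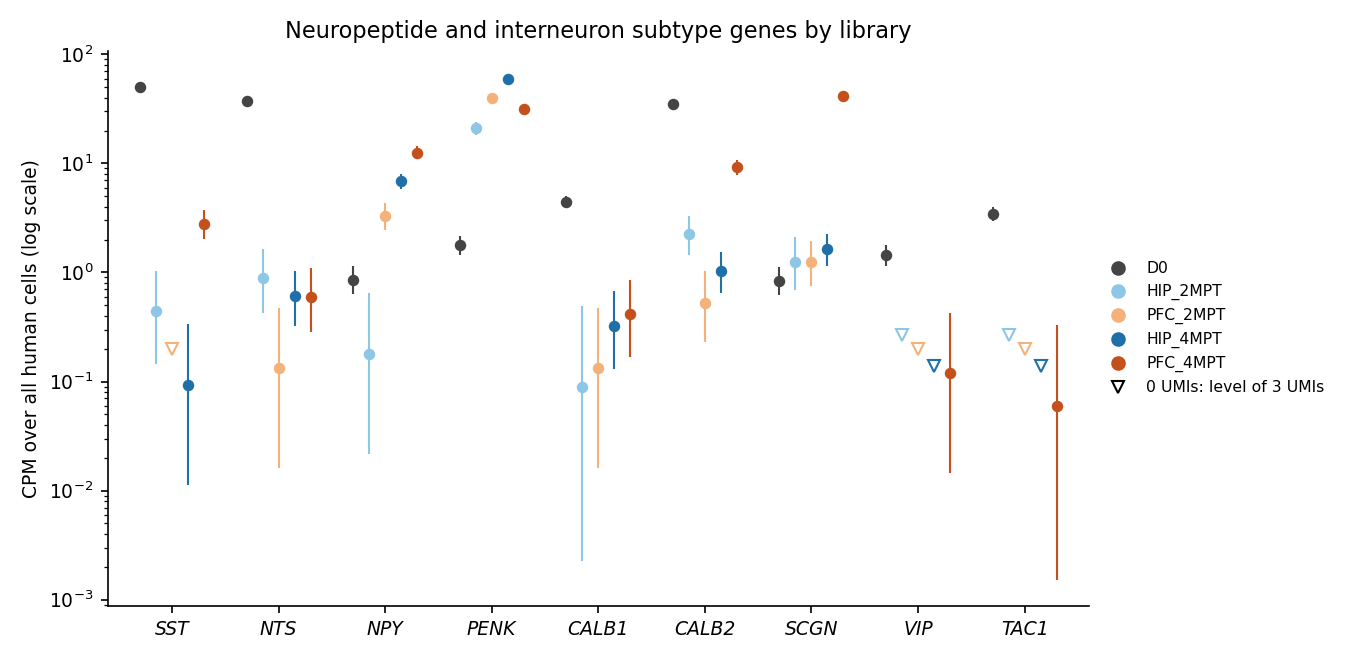
Level of each of the 9 genes over all human cells of each library, in CPM on a log axis, with exact 95% Poisson intervals as bars and open triangles at the level of 3 UMIs where none was counted. D0 lies above the 4 graft libraries for SST, NTS, CALB1, CALB2, VIP and TAC1 and below them for PENK.

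SST, whose peptide inhibits hormone and transmitter release and marks a large group of cortical interneurons, was counted with 2806 (50.2 CPM) UMIs in D0, 5 (0.447 CPM) in HIP_2MPT, 0 in PFC_2MPT, 2 (0.0932 CPM) in HIP_4MPT and 47 (2.79 CPM) in PFC_4MPT. In D0 the SST UMIs came from 494 cells, with up to 160 in 1 cell, and in PFC_4MPT the 47 came from 13 cells, with up to 12 in 1 cell. D0 therefore lay far above every graft library, and the grafts lay within a few UMIs of 0 apart from PFC_4MPT, where few cells carried the count. The D0 level was 18 times (95% interval 13.5 to 24.6) that of PFC_4MPT and at least 253-fold higher than that of PFC_2MPT, taking 3 UMIs as the limit that a count of 0 allows in that library.

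NTS, which encodes a peptide that modulates dopamine signalling, had 2095 (37.5 CPM) UMIs in D0, 10 (0.893 CPM) in HIP_2MPT, 2 (0.132 CPM) in PFC_2MPT, 13 (0.606 CPM) in HIP_4MPT and 10 (0.593 CPM) in PFC_4MPT. Its D0 UMIs lay in 481 cells, with up to 298 in 1 cell. All 4 graft libraries lay below D0, with 2 to 13 UMIs each. PFC_2MPT was lowest, at 0.148 times HIP_2MPT (95% interval 0.0158 to 0.694), while at 4MPT the ratio of PFC to HIP was 0.979 (95% interval 0.384 to 2.42).

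VIP, which marks interneurons that mostly contact other interneurons, had 81 UMIs (1.45 CPM) in D0 and 2 (0.119 CPM) in PFC_4MPT, with 0 counted in each of HIP_2MPT, PFC_2MPT and HIP_4MPT. TAC1, whose peptides act on tachykinin receptors, had 192 UMIs (3.44 CPM) in D0 and 1 (0.0593 CPM) in PFC_4MPT, and 0 in the other 3 grafts. Both genes were thus at or near 0 in every graft at these depths. The D0 level was at least 5.41, 7.32 and 10.4-fold higher than in HIP_2MPT, PFC_2MPT and HIP_4MPT for VIP. For TAC1 the corresponding bounds were 12.8, 17.3 and 24.6-fold, again with 3 UMIs per library as the limit.

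SST, NTS, VIP and TAC1 are the 4 precursor genes that were high in D0 and low after grafting. The 250 bases before their transcription starts are printed here to show which of them carry the cAMP response element, a sequence known as the binding site of the activity-regulated factor CREB. The sequences are from RefSeq on GRCh38.p14, on the strand of the gene and ending at the base before its start. Capitals mark each match to the half-site TGACG on either strand (printed as CGTCA where it lies on the opposite strand), extended to the whole palindrome TGACGTCA where that was present. The positions are chr3:187670395-187670644 on the minus strand for SST, chr12:85874045-85874294 for NTS, chr6:152750547-152750796 for VIP and chr7:97731836-97732085 for TAC1, the last 3 on the plus strand.
SST: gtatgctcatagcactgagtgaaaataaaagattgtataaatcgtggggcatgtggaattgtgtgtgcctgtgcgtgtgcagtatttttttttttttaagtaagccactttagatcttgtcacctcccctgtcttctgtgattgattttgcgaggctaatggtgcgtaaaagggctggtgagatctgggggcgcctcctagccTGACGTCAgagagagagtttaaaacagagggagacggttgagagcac
NTS: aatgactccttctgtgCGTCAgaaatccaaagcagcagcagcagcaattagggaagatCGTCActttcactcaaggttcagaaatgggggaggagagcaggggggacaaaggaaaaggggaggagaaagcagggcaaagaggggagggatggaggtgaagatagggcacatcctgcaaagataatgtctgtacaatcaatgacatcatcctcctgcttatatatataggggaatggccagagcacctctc
VIP: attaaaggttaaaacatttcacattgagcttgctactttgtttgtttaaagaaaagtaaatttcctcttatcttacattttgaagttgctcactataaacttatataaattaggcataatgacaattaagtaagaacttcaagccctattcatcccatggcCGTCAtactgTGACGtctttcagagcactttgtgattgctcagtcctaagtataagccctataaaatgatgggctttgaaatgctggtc
TAC1: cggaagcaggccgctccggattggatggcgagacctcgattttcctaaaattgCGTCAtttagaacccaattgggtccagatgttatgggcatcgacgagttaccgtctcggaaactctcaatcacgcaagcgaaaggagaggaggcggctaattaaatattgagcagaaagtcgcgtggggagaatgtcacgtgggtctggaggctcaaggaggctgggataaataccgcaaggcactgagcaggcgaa
SST held 2 half-site matches, both within 1 full palindrome whose nearest base lay 40 bases before the start, VIP held 2 half-sites, NTS 2 and TAC1 1. Of the 6 members that were searched, NPY and SCGN held none. PENK, CALB1 and CALB2 were not among the 6, so the matches cannot be set against the patterns of D0 and grafts. Over 35116 promoters of the same length, 21.2% held a half-site and 1.65% the full palindrome. These matches describe the letters in a fixed window and were not tested against binding or expression.

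CALB2 (chr16:71358713-71390436 on GRCh38, plus strand), a calcium buffer found in VIP-type interneurons, in Cajal-Retzius cells and in some excitatory neurons, had 1952 (34.9 CPM) UMIs in D0, 25 (2.23 CPM) in HIP_2MPT, 8 (0.529 CPM) in PFC_2MPT, 22 (1.03 CPM) in HIP_4MPT and 155 (9.19 CPM) in PFC_4MPT. D0 was highest, but PFC_4MPT lay clearly above the other 3 grafts, 8.97 times (95% interval 5.71 to 14.7) the level of HIP_4MPT. CALB1, a related buffer, had 247 (4.42 CPM) UMIs in D0, 1 (0.0893 CPM) in HIP_2MPT, 2 (0.132 CPM) in PFC_2MPT, 7 (0.326 CPM) in HIP_4MPT and 7 (0.415 CPM) in PFC_4MPT, so that no graft library exceeded 7 UMIs.

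PENK had 100 (1.79 CPM) UMIs in D0, 235 (21 CPM) in HIP_2MPT, 600 (39.6 CPM) in PFC_2MPT, 1287 (60.0 CPM) in HIP_4MPT and 528 (31.3 CPM) in PFC_4MPT. Every graft library lay above D0, whose level was 0.0298 times that of HIP_4MPT and 0.0852 times that of HIP_2MPT, the highest and the lowest graft. The order among the grafts was HIP_4MPT, PFC_2MPT, PFC_4MPT and HIP_2MPT, so it followed neither stage nor site. At 4MPT the PFC level was 0.522 times (95% interval 0.471 to 0.578) the HIP level, and at 2MPT it was 1.89 times (95% interval 1.62 to 2.2), intervals that lie on opposite sides of 1. The share of intermediate-progenitor-like cells, the class with the highest PENK level as described below, was 10.3% in HIP_2MPT and 10.2% in PFC_2MPT, against 8.74% in HIP_4MPT and 4.94% in PFC_4MPT.

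NPY (chr7:24284188-24291862 on GRCh38, plus strand), a peptide that restrains excitability and that interneurons of several kinds release, had 48 (0.859 CPM) UMIs in D0, 2 (0.179 CPM) in HIP_2MPT, 50 (3.3 CPM) in PFC_2MPT, 147 (6.85 CPM) in HIP_4MPT and 211 (12.5 CPM) in PFC_4MPT. D0 and HIP_2MPT were lowest, and both 4MPT libraries lay above both 2MPT libraries. SCGN (chr6:25652201-25701783 on GRCh38, plus strand), a calcium sensor found in migrating and newborn interneurons, had 47 (0.841 CPM) UMIs in D0, 14 (1.25 CPM) in HIP_2MPT, 19 (1.26 CPM) in PFC_2MPT, 35 (1.63 CPM) in HIP_4MPT and 705 (41.8 CPM) in PFC_4MPT. The first 4 libraries lay between 0.84 and 1.63 CPM and PFC_4MPT stood at 25.6 times (95% interval 18.3 to 37.1) the level of HIP_4MPT. PFC_4MPT also stood apart in quality, with a median mitochondrial share of 7.31% against 2.35 to 3.77% in the other libraries, and with 6496 of its 8363 cells left at a human share over 0.9. Its SCGN level was 36.7 CPM in those cells and 43.4 CPM at a mitochondrial share under 0.10, its CALB2 level 8.72 and 9.17 CPM, and its SST level 2.75 and 2.88 CPM. In PFC_2MPT the 19 SCGN UMIs came from 6 cells, with up to 10 in 1 cell, whereas the 705 of PFC_4MPT were spread over 354 cells.

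Whether grafting and its duration went with a change was tested with edgeR's quasi-likelihood F test on the UMIs summed per library, with the HIP and PFC libraries as the replicates of a stage. The lone D0 library was assumed to vary like the grafts, and p-values measure only the spread between libraries. SST, NTS, CALB1, VIP and TAC1 had too few UMIs for the fit of the grafts alone by site, given below. They were tested here together with D0, where they were high, so their lower calls add little to the levels. At 2MPT against D0, 7 of the 9 genes passed an adjusted p of 0.05 (Benjamini-Hochberg over all 19074 genes tested), 1 higher and 6 lower, where 48.3% of all genes tested passed (27.2% higher and 21.1% lower). PENK rose (log2 fold change 3.73, standard error 0.53, adjusted p = 0.000296). NTS fell (log2 fold change -6.66, standard error 0.58, adjusted p = 1.76e-05), as did CALB1 and CALB2, at log2 fold changes of -5.57 and -5.09, and SST, VIP and TAC1, whose bounds are given above. NPY (log2 fold change 0.74, standard error 0.95, adjusted p = 0.544) and SCGN (log2 fold change 0.22, standard error 1.35, adjusted p = 0.905) did not pass. The NPY value went opposite ways at the 2 sites, being 1.61 without HIP_2MPT and -2.61 without PFC_2MPT. Each of these sets 1 library against 1, so they are given without a test.

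At 4MPT against D0 all 9 genes passed by edgeR, 3 higher and 6 lower, with a background of 50.1% (28.7% higher and 21.4% lower). With so high a background, a count of called genes says little about these 9. The median log2 fold change of the 9 was -5.57 at 2MPT and -3.87 at 4MPT, against 0.069 and 0.080 over all genes. Since the 9 were chosen with earlier results of these data known, these medians only describe them. PENK (log2 fold change 4.36, standard error 0.55, adjusted p = 0.000131), SCGN (log2 fold change 4.42, standard error 1.43, adjusted p = 0.025) and NPY (log2 fold change 3.20, standard error 1.00, adjusted p = 0.0214) were higher than in D0. SST (log2 fold change -5.46, standard error 0.94, adjusted p = 0.000903), NTS (log2 fold change -6.25, standard error 0.54, adjusted p = 1.64e-05), CALB1, CALB2, VIP and TAC1 were lower. Without PFC_4MPT the log2 fold change was 0.67 for SCGN and 2.71 for NPY, while SST (-9.27) and CALB2 (-5.36, against -3.06 with all libraries) lay further below D0. These set HIP_4MPT alone against D0 alone and are given without a test. DESeq2 called 6 of the 9 at 2MPT and only 4 at 4MPT, which were PENK, TAC1, CALB1 and NTS.

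Between the stages none of the 9 genes passed over all cells by edgeR, with 3 at an unadjusted p under 0.05, and DESeq2 called 0, with 1 unadjusted. For SST, NTS, CALB1, VIP and TAC1, which had few UMIs in grafts, not passing says little. The background was 2.4% of genes (1.85% higher and 0.55% lower). SCGN came nearest (log2 fold change 4.20, standard error 1.11, adjusted p = 0.0898), followed by NPY (log2 fold change 2.46, standard error 0.76, adjusted p = 0.151). The SCGN difference rested on PFC_4MPT, since without that library its log2 fold change was 0.40 (adjusted p = 0.840). The CALB2 difference (log2 fold change 2.02, standard error 0.88, adjusted p = 0.337) turned to -0.34 without PFC_4MPT and was 3.30 without HIP_2MPT. With the graft site as a block 2 genes passed, SCGN (log2 fold change 3.15, adjusted p = 0.00218) and NPY (log2 fold change 2.99, adjusted p = 0.000372), with 1 residual degree of freedom. The spread shared across genes had 39 prior degrees of freedom in that fit, so these calls rest little on each gene's own spread. From 2MPT to 4MPT, SCGN went from 1.25 to 1.63 CPM in HIP and from 1.26 to 41.8 CPM in PFC. Leaving out HIP_2MPT, PFC_2MPT or HIP_4MPT gave 3 calls each, but without either 2MPT library edgeR took 1 common spread trend for all genes, so those calls do not rest on each gene's own spread. Between the sites, with the stage in the fit, none of the 4 genes with enough counts passed by edgeR, where 0.0827% of genes did (0.0662% higher and 0.0165% lower in PFC). SCGN (log2 fold change 2.95, standard error 0.68, adjusted p = 0.0951) and NPY (log2 fold change 1.87, standard error 0.55, adjusted p = 0.47) had unadjusted p-values under 0.05, and DESeq2 called 0 with 1 unadjusted.

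The classes showed that the 9 genes differed in which cells carried them. SCGN, CALB2 and NPY were higher in inhibitory-like than in glutamatergic-like cells, while PENK was highest in intermediate-progenitor-like cells, lower in glutamatergic-like cells and near the detection limit in inhibitory-like cells. SST, NTS, CALB1, VIP and TAC1 had too few UMIs in grafts to be tested between classes. The levels by class and library are plotted.

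**Figure D2:**
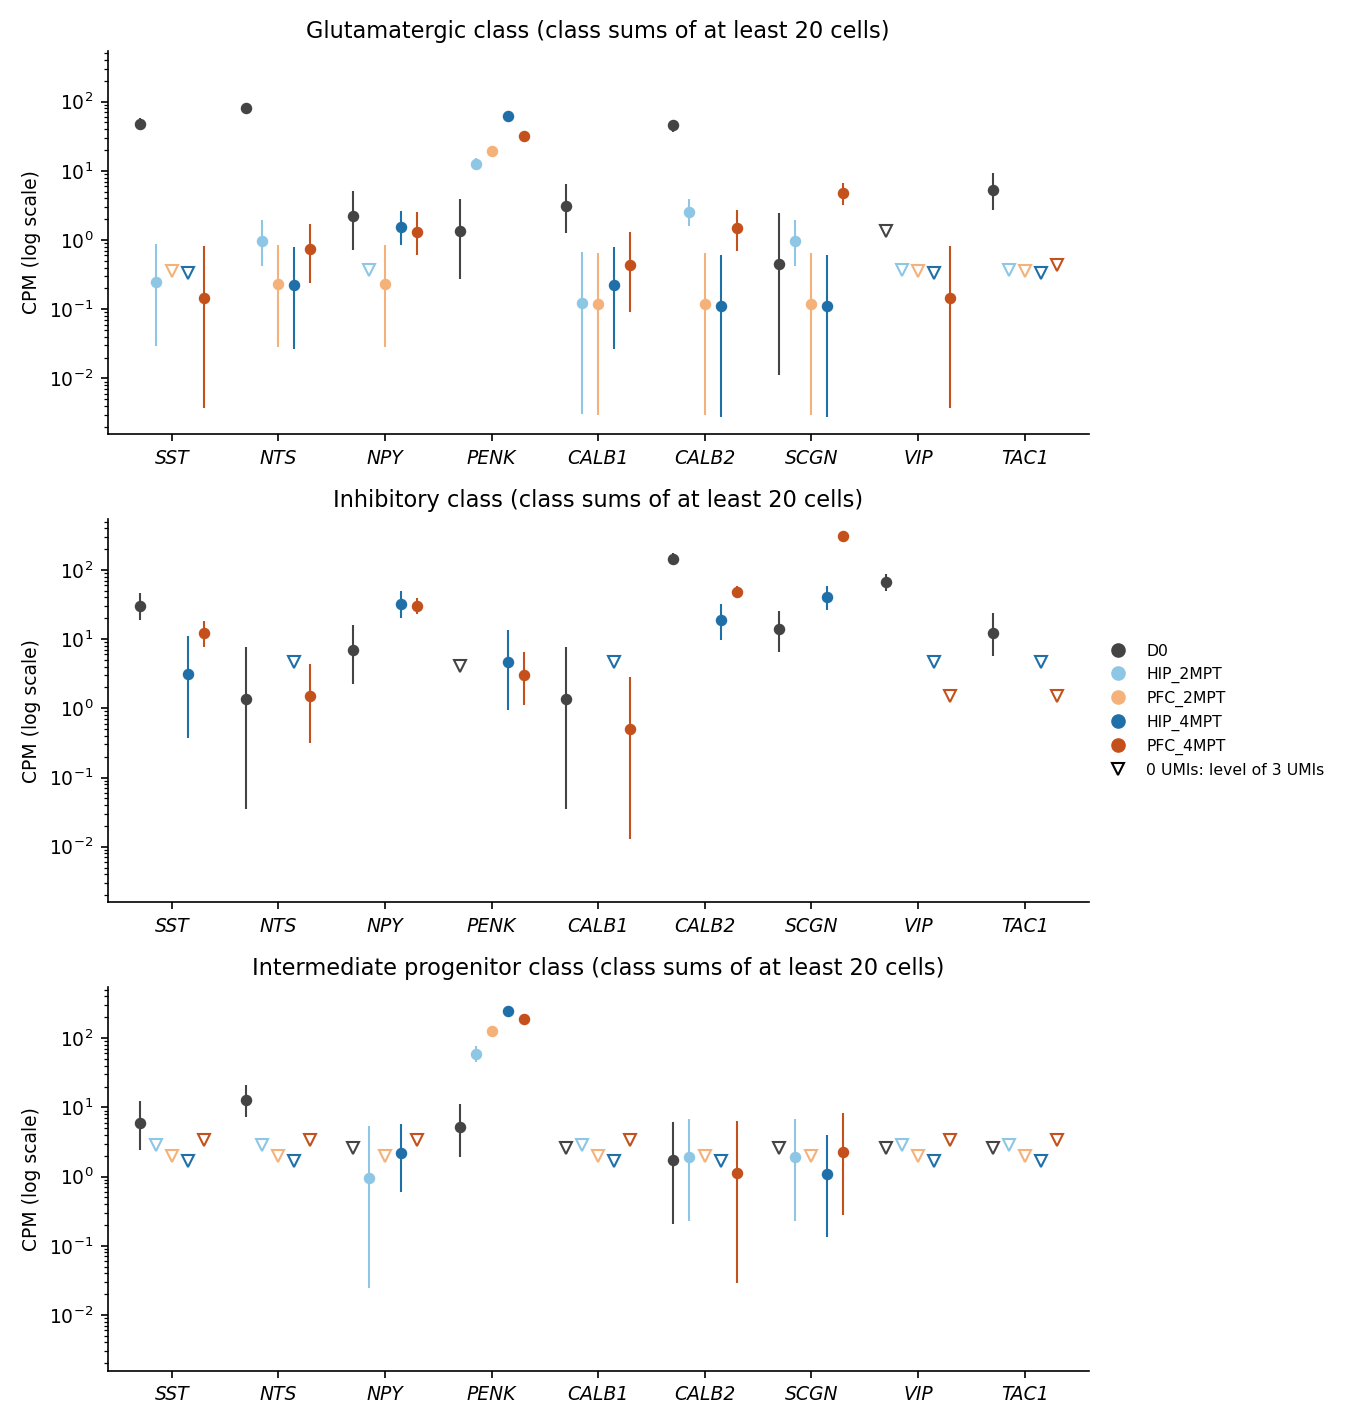
Level of each gene in the glutamatergic-like, inhibitory-like and intermediate-progenitor-like cells of each library, in CPM on a log axis, with exact 95% Poisson intervals and open triangles at the level of 3 UMIs where none was counted. PENK lies highest in intermediate-progenitor-like cells of grafts, up to 248 CPM, and SCGN in inhibitory-like cells of PFC_4MPT, at 304 CPM. Sums of fewer than 20 cells are left out.

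PENK in intermediate-progenitor-like cells was 6 (5.14 CPM) UMIs in D0, 62 (59.1 CPM) in HIP_2MPT, 192 (129 CPM) in PFC_2MPT, 449 (248 CPM) in HIP_4MPT and 166 (189 CPM) in PFC_4MPT. The level was higher in all grafts than in D0, and both 4MPT libraries lay above both 2MPT libraries with intervals that did not overlap. After each cell was thinned to 1000 UMIs, so that depth per cell was equal, PENK was found in 4.91% of these cells in HIP_2MPT and 10.6% in PFC_2MPT, and at 4MPT in 20.9% in HIP_4MPT (exact 95% binomial interval 17.7 to 24.4%) and 15.1% in PFC_4MPT. The unthinned shares were 6.68, 20.9, 39.1 and 24.7%. For comparison, the thinned share in astrocyte-like cells was 1.26 to 3.02% in grafts. It was lower in inhibitory-like cells, with PENK in 2 of 1018 thinned cells of PFC_4MPT and 2 of 236 of HIP_4MPT. Whether free RNA gave part of the astrocyte-like share was not tested.

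In glutamatergic-like cells PENK had 3 (1.33 CPM) UMIs in D0, 102 (12.5 CPM) in HIP_2MPT, 166 (19.5 CPM) in PFC_2MPT, 570 (63 CPM) in HIP_4MPT and 215 (31.6 CPM) in PFC_4MPT. These values too were above D0 in all grafts and higher at 4MPT than at 2MPT. The test of 4MPT against 2MPT passed for PENK in glutamatergic-like cells (log2 fold change 1.62, standard error 0.34, adjusted p = 0.041), the only one of 6 genes tested to do so, with 1.03% of genes called (0.658% higher and 0.374% lower). It passed for PENK in intermediate-progenitor-like cells as well (log2 fold change 1.30, standard error 0.32, adjusted p = 0.0482), 1 of 2 genes tested, with 0.933% called (0.637% higher and 0.297% lower). Both calls were close to the threshold. The D0 class sums were part of both fits. SST and NTS entered the fit of glutamatergic-like cells through their D0 UMIs, as NTS did that of intermediate-progenitor-like cells. With hardly any UMIs in grafts they could not pass, so the numbers of genes tested say little. The classes themselves differed by stage. Glutamatergic markers in glutamatergic-like cells summed to 2051 (HIP) and 2208 (PFC) CPM at 2MPT and to 1268 and 1046 CPM at 4MPT. Intermediate progenitor markers in intermediate-progenitor-like cells summed to 2823 and 2948 CPM, and to 1495 and 1650 CPM. The part of this in the PENK differences was not tested. Without HIP_2MPT the adjusted p was 0.081 in glutamatergic-like and 1 in intermediate-progenitor-like cells, without HIP_4MPT it was 0.146 and 0.195, and DESeq2 gave an adjusted p of 0.0214 and 0.297. Between the sites none of the 3 genes tested in glutamatergic-like cells was called, where edgeR called 0.0889% of genes (0.0508% higher and 0.0381% lower in PFC), and in intermediate-progenitor-like cells the 1 gene tested was not, where it called 0.0485% (0.0097% higher and 0.0388% lower). None of these genes had an unadjusted p under 0.05 by edgeR or DESeq2.

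The same gene was hardly found in inhibitory-like cells, with 3 UMIs in HIP_4MPT (4.66 CPM) and 6 in PFC_4MPT (3.03 CPM). Among graft class sums of at least 20 cells, with the library as a block, PENK was higher in intermediate-progenitor-like than in glutamatergic-like cells (log2 fold change 2.46, standard error 0.13, adjusted p = 4.29e-10), the only one of 4 genes tested, with 24.9% of all genes called (12.8% higher and 12.1% lower). It was lower in inhibitory-like than in glutamatergic-like cells (log2 fold change -3.48, standard error 0.37, adjusted p = 1.63e-06) and than in intermediate-progenitor-like cells (log2 fold change -5.94, standard error 0.31, adjusted p = 5.74e-10). These tests take the classes as given, and only 2 graft libraries had enough inhibitory-like cells to enter. SCGN, CALB2 and NPY, the other genes tested, had enough UMIs only through those inhibitory-like cells. That they did not pass between the other classes therefore says little.

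SCGN in inhibitory-like cells stood at 13.8 CPM in D0, 40.4 in HIP_4MPT and 304 in PFC_4MPT (10, 26 and 603 UMIs). HIP_2MPT had 0 UMIs in 12 cells and PFC_2MPT 11 UMIs in 2 of 18 cells, 10 of them in 1 cell. The PFC_4MPT level was thus far above that of HIP_4MPT within the same class, and the thinned share of cells with SCGN was 20.9% (18.5 to 23.6%) against 4.24% (2.05 to 7.65%). Unthinned, these shares were 26.6 and 5.35%. With 1 library each, the difference has no replicate and no test. In PFC_4MPT 85.5% of SCGN UMIs lay in the inhibitory-like cells, which made up 12.8% of its cells. In glutamatergic-like cells of PFC_4MPT, SCGN was at 4.71 CPM and was found in 0.261% of thinned cells, the nearest measure of background in that library.

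CALB2 in inhibitory-like cells was 145 CPM in D0 (105 UMIs in 21 of 77 cells), 18.6 CPM in HIP_4MPT (12 UMIs) and 48.5 CPM in PFC_4MPT (96 UMIs). D0 was highest, with an interval (119 to 175 CPM) that did not overlap that of PFC_4MPT (39.3 to 59.2 CPM). NPY was 6.9, 32.6 and 30.3 CPM in the same 3 libraries, so the intervals of the 4MPT grafts overlapped within the class, while over all cells the PFC_4MPT level was 1.83 times (95% interval 1.47 to 2.27) that of HIP_4MPT. The share of inhibitory-like cells was 3.52% in HIP_4MPT and 12.8% in PFC_4MPT, where NPY, SCGN and CALB2 over all cells were also higher. From HIP_2MPT to HIP_4MPT the share rose from 0.145 to 3.52%. There NPY over all cells went from 0.179 to 6.85 CPM and SCGN from 1.25 to 1.63 CPM, while CALB2 fell from 2.23 to 1.03 CPM. D0 had the highest CALB2 level, 34.9 CPM, at a share of 1.58%. The part of this share in those levels was not tested.

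All 4 genes tested between inhibitory-like and glutamatergic-like cells passed, with a background of 22.2% (11.2% higher and 11.0% lower). However, SCGN, CALB2 and NPY had enough UMIs to be tested only through the inhibitory-like sums, where they were high. Their calls as higher in inhibitory-like cells therefore add little to the levels. SCGN (log2 fold change 6.29, standard error 0.28, adjusted p = 5.79e-11), CALB2 (log2 fold change 5.50, standard error 0.49, adjusted p = 2.27e-07) and NPY (log2 fold change 4.53, standard error 0.50, adjusted p = 2.86e-06) were higher in inhibitory-like cells. Against intermediate-progenitor-like cells the same 3 were higher and PENK lower, with 11.7% of genes called (5.99% higher and 5.7% lower). The log2 fold changes of SCGN, CALB2 and NPY were 6.10, 5.98 and 4.21. Between intermediate-progenitor-like and glutamatergic-like cells, SCGN, CALB2 and NPY had log2 fold changes of 0.19, -0.48 and 0.32 with standard errors of 0.67, 0.86 and 0.86 and did not pass.

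**Figure D3:**
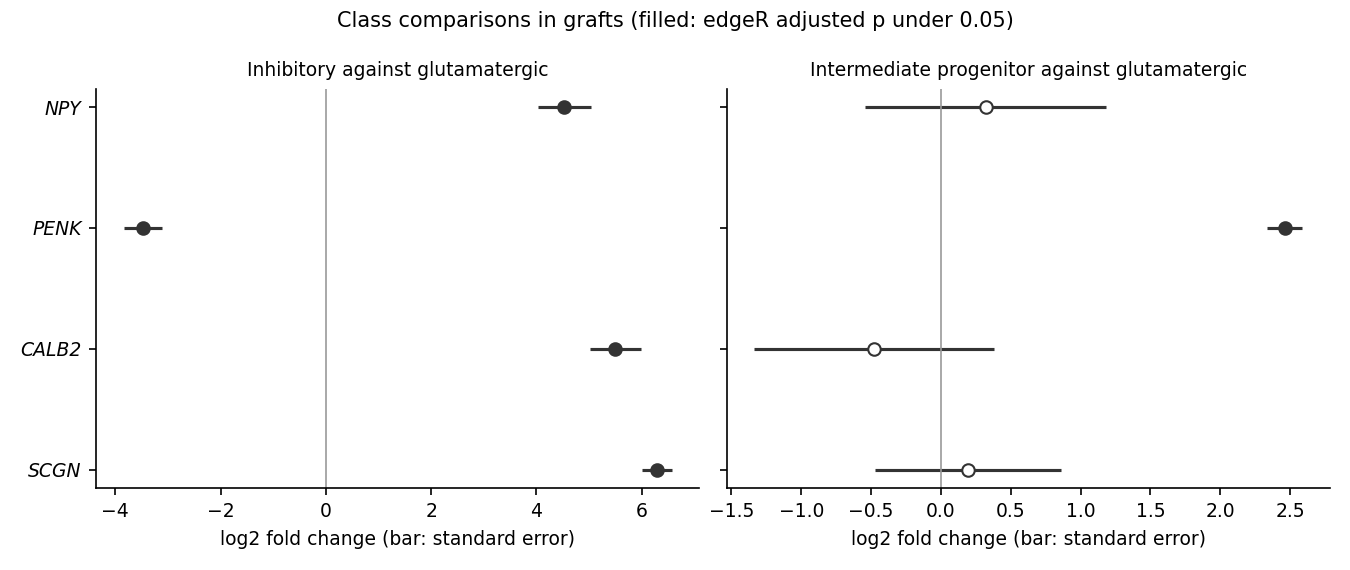
Log2 fold change between classes of graft cells for the 4 genes with enough counts, with standard errors as bars and filled points where the edgeR adjusted p was under 0.05. SCGN, CALB2 and NPY lie right of 0 and PENK left of 0 in the inhibitory-like against glutamatergic-like comparison, and PENK alone is filled in the comparison of intermediate-progenitor-like with glutamatergic-like cells. The 2 panels have different scales.

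The remaining precursors were rare in the inhibitory-like cells of grafts. SST had 24 UMIs in 6 cells of PFC_4MPT (12.1 CPM), 2 in HIP_4MPT, none in PFC_2MPT and 3 in 1 of the 12 cells of HIP_2MPT. VIP and TAC1 had 0 UMIs in the inhibitory-like cells of all 4 grafts, which in PFC_4MPT allows up to 1.51 CPM. In D0 inhibitory-like cells VIP reached 66.2 CPM, and these 77 cells held 48 of the 81 VIP UMIs of that library.

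Outside the 3 classes, NPY in PFC_2MPT and both 4MPT libraries was found in cycling-progenitor-like cells, which are dividing cells. In D0, 21 of its 48 UMIs lay in the mixed D0 cluster and 6 in cycling-progenitor-like cells. Their NPY level was 0.441 CPM in D0 and 0 in HIP_2MPT, against 13.7 CPM in PFC_2MPT, 32.6 CPM in HIP_4MPT and 66.6 CPM in PFC_4MPT. They held 48, 46.9 and 47.9% of the NPY UMIs of the last 3 libraries. Levels at 4MPT lay above those at 2MPT, and the PFC level lay above the HIP level at both stages, with 1 library for each value. Among the 3 cycling clusters, the one whose second highest marker list was the inhibitory one had the highest NPY in the 4MPT grafts, 56.3 CPM in HIP_4MPT and 94.6 in PFC_4MPT, against 10.4 to 12.2 and 20.4 to 35.7 CPM in the other 2 clusters. After thinning, NPY was found in 3.89% of cycling-progenitor-like cells of HIP_4MPT and 5.69% of PFC_4MPT (9.49 and 11.2% unthinned), against 0.252% of the astrocyte-like cells of PFC_4MPT. SCGN was also present in cycling-progenitor-like cells of PFC_4MPT, at 30.3 CPM, against 2.36 CPM in HIP_4MPT. PENK in these cells was 61.7, 69.2, 37.3 and 30.3 CPM in HIP_2MPT, PFC_2MPT, HIP_4MPT and PFC_4MPT, so here both 4MPT values lay below both 2MPT values.

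**Figure D4:**
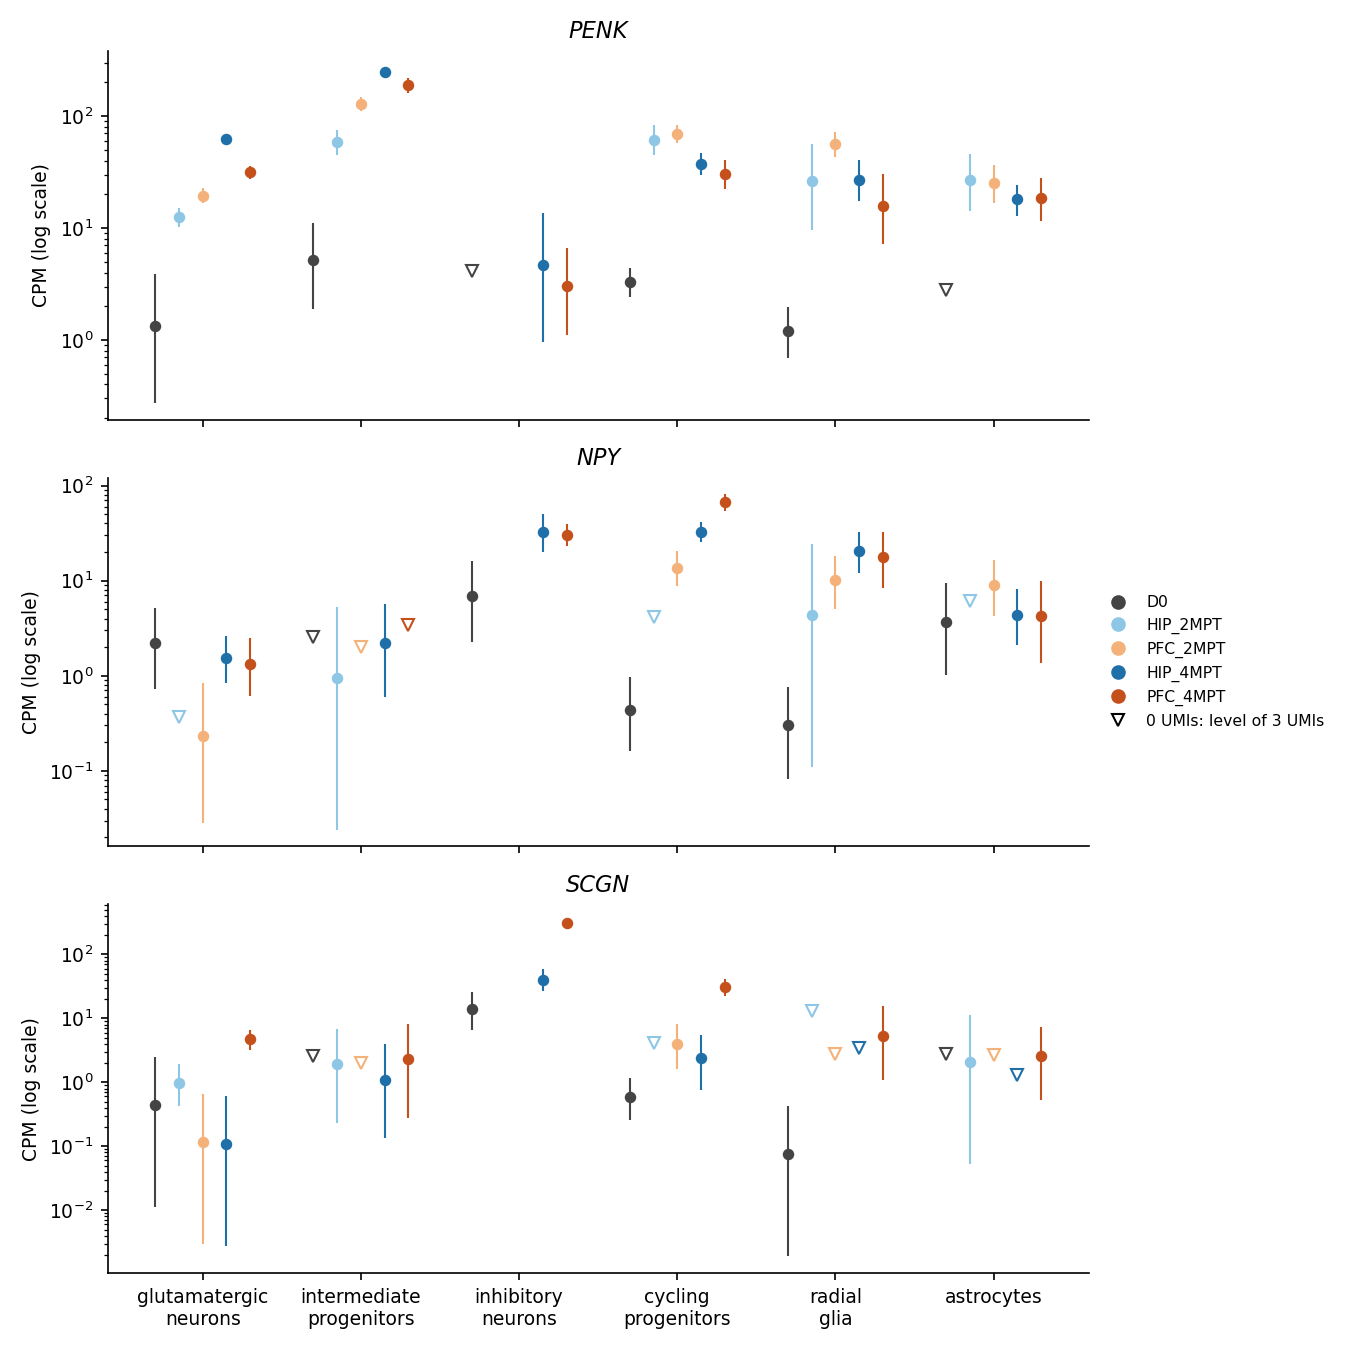
Level of PENK, NPY and SCGN in 6 groups of cells in each library, in CPM on a log axis, with exact 95% Poisson intervals. PENK is highest in intermediate-progenitor-like cells except in HIP_2MPT, where cycling-progenitor-like cells reach 61.7 CPM against 59.1 CPM. In both 4MPT libraries NPY is highest in cycling-progenitor-like and inhibitory-like cells, and SCGN is highest in inhibitory-like cells.

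In D0, most UMIs of SST, NTS, CALB2 and TAC1 lay in the mixed D0 cluster. It held 23.8% of D0 cells and 63.7% of the SST UMIs, 71.5% of NTS, 73.3% of CALB2 and 63% of TAC1. Its marker sums were 2055 CPM for 9 glutamatergic, 259.8 for 8 inhibitory and 31.9 for 5 Cajal-Retzius markers, the last being early-born neurons of the outermost cortical layer. The glutamatergic-like cells of D0 had 985, 104 and 51.5 CPM for the same lists. The glutamatergic sum was thus higher in the mixed D0 cluster than in the class of that name. A smaller unnamed cluster with the highest Cajal-Retzius sum in D0 (222 CPM, 89 cells) had SST at 411 CPM. Its other D0 sums were larger, at 366 CPM for inhibitory, 511 for glutamatergic and 573 for intermediate progenitor markers. Sums of lists with unlike numbers and levels of genes do not settle whether these were Cajal-Retzius cells, so the cluster is given no name here. VIP was different, with 27.2% of its UMIs in the mixed D0 cluster and 59.3% in the inhibitory-like cells. CALB1 differed too, since 49.8% of its D0 UMIs lay in choroid-plexus-like cells, the fluid-secreting epithelium, at 16.3 CPM.

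When clusters were formed without integration across libraries, the D0 neurons separated into 1091 inhibitory-like and 1009 glutamatergic-like cells, with inhibitory marker sums of 827 and 51.1 CPM. The former sum was below the 3902 CPM of the 77 inhibitory-like D0 cells of the integrated clusters. The sum of glutamatergic markers was 592.5 CPM in these inhibitory-like cells, against 279 CPM in those 77, and 2286.5 CPM in the glutamatergic-like cells. In the cluster that held nearly all of the former, Cajal-Retzius markers scored as high as inhibitory ones (mean z 1.73 and 1.69), so the name is less firm than in grafts. SST was 288 CPM (277 to 300.1) in the former and 17.1 CPM (14.9 to 19.5) in the latter. TAC1 (18.4 against 1.58 CPM) and VIP (8.07 against 0.395 CPM) also lay higher in the inhibitory-like cells. CALB2 went the other way, at 61 against 94.5 CPM, and NTS was 121 against 66.3 CPM. In the integrated D0 classes, SST, NTS and CALB2 had the opposite order. There the ratio of inhibitory-like to glutamatergic-like cells was 0.634 for SST (95% interval 0.381 to 1.01). It was 0.0172 for NTS (0.000433 to 0.097) and 3.20 for CALB2 (2.41 to 4.25). VIP (48 against 0 UMIs) and TAC1 (ratio 2.33, interval 0.868 to 6.03) kept their order. The integrated glutamatergic-like class of D0 was small and shallow, with 322 cells, a median of 3613.5 UMIs and a glutamatergic sum of 985 CPM. The 1009 glutamatergic-like cells formed without integration had a median of 10626 UMIs and a sum of 2286.5 CPM. All are values of 1 library. The thinned share of cells with SST was 9.18% in these inhibitory-like cells (19.5% unthinned, median 5566 UMIs per cell) and 1.14% in the glutamatergic-like cells (7.73%, median 10626). In choroid-plexus-like cells, taken as a comparison, it was 1.83% (7.89%, median 9838), so the share in these glutamatergic-like cells was no higher than there. Whether free RNA gave these shares was not tested.

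**Figure D5:**
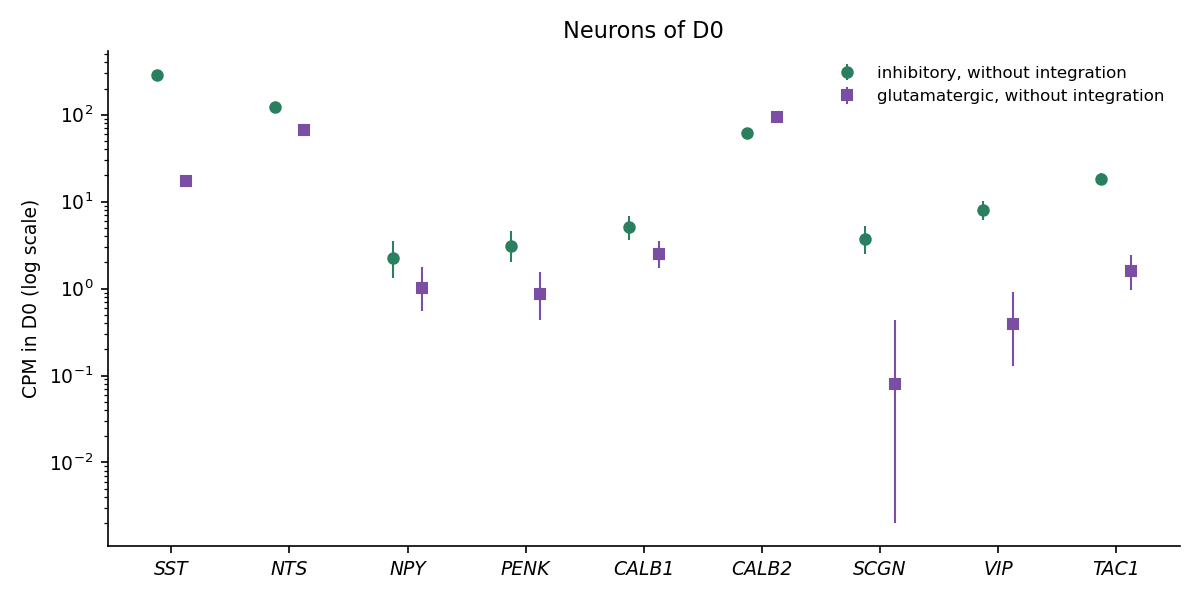
Level of the 9 genes in the inhibitory-like and glutamatergic-like cells of D0 from clusters formed without integration, in CPM on a log axis, with exact 95% Poisson intervals. SST lies at 288 CPM in inhibitory-like and 17.1 CPM in glutamatergic-like cells, and CALB2 is the one gene that lies higher in glutamatergic-like cells.

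How often genes fell on the same cells was counted after thinning. Of 1018 inhibitory-like cells of PFC_4MPT, 213 had SCGN, 42 had CALB2 and 18 had NPY. SCGN and CALB2 were found together in 17 cells, against 8.79 that the product of their shares gives. NPY was found with SCGN in 4 cells, against 3.77, and with CALB2 in 3, against 0.743. Over all PFC_4MPT cells PENK and SCGN shared 2 cells, against 6.63, and PENK and NPY 0, against 1.71. These counts are small and describe 1 library.

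Over the 13 class-by-library sums with at least 50 cells, the genes whose level followed each member most closely, by Pearson correlation of log2(CPM + 1) among 15206 genes, were named as a description. The sums share 5 libraries and differ in depth. PENK was followed most closely by SLC1A3 (r = 0.975), a glutamate transporter of glia and progenitors, and by CDCP1 and KCNH1. SCGN was followed by CSMD3 (r = 0.969), ST8SIA5 and NRXN3, NPY by SP9 (r = 0.944), a transcription factor of inhibitory precursors, and CALB2 by SLC32A1 (r = 0.958), the vesicular transporter of GABA, and LAMP5. Since SLC32A1 was among the markers that named the inhibitory-like clusters, its levels over these sums follow in part from the naming. NTS was followed by MAB21L1 (r = 0.985), LHX1 and RELN, and SST by AL139246.5 (r = 0.953), TMEM106C and TSC22D3. CALB1, VIP and TAC1 had under 50 UMIs in these sums.

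Other genes of the same pathways were counted from 4 lists that were also left out of the clustering. The lists were chosen with earlier results of these data known, so their counts and medians are descriptions. Of 19 other neuropeptide precursors, 16 were tested over all cells, of which 1 was higher and 11 lower at 2MPT than in D0 and 2 were higher and 8 lower at 4MPT. Over all genes 27.2% were higher and 21.1% lower at 2MPT, and 28.7% and 21.4% at 4MPT. Their medians were -2.65 and -1.29 on the log2 scale, against 0.069 and 0.080 over all genes. In the fit of grafts alone by site, 11 of these precursors had enough UMIs to be tested. Some of the 16 may thus have entered through their D0 UMIs alone and could then hardly be called higher. The lower calls and the medians therefore say little about the list. TRH, the precursor of thyrotropin-releasing hormone and the most abundant, fell at 2MPT (log2 fold change -5.41, standard error 0.36, adjusted p = 5.13e-06) and at 4MPT (log2 fold change -5.06, standard error 0.35, adjusted p = 6.43e-06). CCK, a peptide of both excitatory and inhibitory neurons, fell at 2MPT (log2 fold change -4.82, standard error 0.56, adjusted p = 8.22e-05). CORT, which encodes the somatostatin relative cortistatin, was higher at 4MPT than in D0 (log2 fold change 4.80, standard error 0.58, adjusted p = 0.000104).

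Of 24 other interneuron subtype genes, 15 were tested between inhibitory-like and glutamatergic-like cells of grafts, 8 higher and 2 lower, where 11.2% of all genes tested were higher and 11.0% lower. SP9 (log2 fold change 6.50, standard error 0.40, adjusted p = 1.2e-08) and LAMP5, a marker of neurogliaform interneurons (log2 fold change 6.17, standard error 0.68, adjusted p = 2.84e-06), were higher. Genes can enter this fit through the inhibitory-like sums alone, as SCGN, CALB2 and NPY did. Whether the listed genes called higher did so was not examined. Such calls, that of VIPR2 below included, may therefore say little. The 2 called lower had the most UMIs of the list. They were MEIS2 (log2 fold change -1.27, standard error 0.13, adjusted p = 1.67e-06) and NR2F1 (log2 fold change -0.45, standard error 0.14, adjusted p = 0.0246). Of 10 genes that process peptides or form their granules, 9 were tested in the same comparison, and 7 were lower and none higher by edgeR, beside the same 11.0% and 11.2% of all genes. CPE, the carboxypeptidase that trims peptides (log2 fold change -2.23, standard error 0.17, adjusted p = 4.35e-08), and PCSK1N, which encodes an inhibitor of the convertase PCSK1 (log2 fold change -0.85, standard error 0.14, adjusted p = 0.000176), were among those lower. Of 21 receptors of the member peptides, 4 were tested there, 1 higher and 2 lower, too few to set against those shares. SSTR2, a somatostatin receptor, was lower (log2 fold change -2.90, standard error 0.23, adjusted p = 5.75e-08) and VIPR2, a receptor of VIP, was higher (log2 fold change 5.64, standard error 0.49, adjusted p = 1.55e-07), while its ligand gene had no UMI in these cells.

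Between the stages over all cells, SP9 (log2 fold change 5.17, standard error 0.73, adjusted p = 0.00487), ETV1 (log2 fold change 2.44, standard error 0.47, adjusted p = 0.0228) and VIPR2 (log2 fold change 2.89, standard error 0.41, adjusted p = 0.00469) were higher at 4MPT. These belonged to 3 called of 21 subtype genes tested and 2 called of 11 receptors tested, all of them higher, where 1.85% of all genes were higher. D0 was part of this fit, so some of the genes tested may have had few UMIs in grafts. Of the list of precursors 1 of 16 was called, NXPH1, which encodes a secreted ligand of neurexins (log2 fold change 4.15, standard error 0.48, adjusted p = 0.00183), and of the processing genes 0 of 10 by edgeR. In glutamatergic-like cells ETV1 (log2 fold change 2.83, standard error 0.35, adjusted p = 0.00207), a factor of deep-layer neurons, and SOX6 (log2 fold change 1.92, standard error 0.28, adjusted p = 0.00541) rose from 2MPT to 4MPT, 2 of 18 subtype genes tested, where 0.658% of all genes were higher.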

How the data were processed

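UMI counts per gene and cell barcode were deposited by the authors as made by Cell Ranger, without normalization and before species and quality filters. For grafts a second set of counts, on a joint human and mouse reference, was used for the species filter, and D0 was counted on an earlier human annotation. Whether intronic reads were counted is not given in the sources used here. The 9 genes, the lists and the tests were chosen with earlier results of these data known.

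Human cells had over 500 UMIs, over 500 genes, log10 genes divided by log10 UMIs above 0.80, a mitochondrial share under 0.15 and, in grafts, a human share over 0.8 in the dual reference. Clusters were made in R 4.3.3 by Seurat 5.3.0 with sctransform 0.4.2 (2500 variable genes, 40 principal components, RPCA integration, resolution 0.8). The 83 genes listed in the neuropeptide and subtype lists, the 9 included, were left out of clustering, but genes correlated with them were not. A cluster was named from at least 3 detected markers, and 5 of 21 stayed unnamed, where the glutamatergic and inhibitory scores lay within 0.5 of each other or another list had more of the leading genes. Other close pairs of lists did not bar a name. Scrublet, run through scanpy 1.11.5, called 5 cells and so did not work, and doublets were not removed.

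UMIs were summed per library, or per library and class with at least 20 cells, and tested with edgeR 4.0.16 (filterByExpr, TMM, quasi-likelihood F test, Benjamini-Hochberg adjustment over all genes tested, threshold 0.05). The standard error is the log2 fold change divided by the square root of F. DESeq2 1.42.0 was the alternative. Stage and site tests within inhibitory-like cells were not made, since 2 of the graft sums held enough cells. On simulated data, the 4MPT against 2MPT comparison over 18086 genes found 86 of 100 genes changed 4-fold and 22 of 100 changed 2-fold, with 8 false calls. The inhibitory against glutamatergic comparison over 12533 genes found 96 and 68, with 10 false calls. Intervals for CPM are exact Poisson and those for shares exact Clopper-Pearson, at 95%, computed with SciPy 1.17.1. They cover counting error only. A count of 0 was taken to allow 3 UMIs. Shares were taken after thinning to 1000 UMIs, without shallower cells. Named genes were the 9 genes, from each list up to 4 genes (highest summed UMIs and largest called changes), and the 3 genes most correlated with each of the 9.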

Additional observations from a re-analysis of the deposited data

Results flagged for a closer look

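For 4 values the difference between 4MPT and 2MPT went one way in HIP and the other way in PFC. Each rests on 1 library per stage and site, and the difference between sites was not tested. PENK over all cells was 39.0 CPM higher at 4MPT than at 2MPT in HIP and -8.33 CPM, lower, in PFC. CALB2 over all cells changed by -1.21 CPM in HIP and 8.66 CPM in PFC, and in glutamatergic-like cells by -2.46 CPM in HIP and 1.35 CPM in PFC. NTS over all cells changed by -0.288 CPM in HIP and 0.461 CPM in PFC, on 2 to 13 UMIs per library.

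Mouse host barcodes were in no comparison. In 4961 host barcodes of the 4 graft libraries, the mouse ortholog of NTS was counted 56 times, that of NPY 58 times, that of PENK 33 times and that of CALB2 48 times, each above the 3 UMIs that a count of 0 allows. In the human cells of these libraries the same mouse genes were counted 6, 10, 5 and 6 times, against 35, 409, 2647 and 209 UMIs of the human genes.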

How the results depend on the processing

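Depth limits the rare genes most, since 1 to 3 UMIs set many graft levels, and changes of 2-fold were mostly missed between stages on simulated data. The log2 fold change of CALB2 at 4MPT against 2MPT over all cells ranged from -0.34 without PFC_4MPT to 3.30 without HIP_2MPT (2.02 with all libraries), and it was called without HIP_2MPT, without HIP_4MPT or with no filter on low counts. Without either 2MPT library, and with no filter, the prior degrees of freedom of edgeR were infinite over all cells, so that genes shared 1 spread trend and calls did not use each gene's own spread. That of PENK for PFC against HIP went to -0.16 with no stage in the fit. The difference of NPY at 2MPT against D0 ran from -2.61 to 1.61 with 1 library left out, each end on 1 library against 1. For intermediate-progenitor-like against glutamatergic-like cells, 3 small differences that were not called also turned, with NPY at -0.22 with D0, CALB2 at 0.0025 without integration, and SCGN at -0.069 with the dual reference, -0.070 with cells classed 1 by 1 and -0.15 with no library block. With 1 library left out, NPY ran from -0.40 to 0.79 and SCGN from -0.30 to 1.47 there. None of the other differences printed for the 9 genes turned. The cause of the changes below was not tested.

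For 4MPT against D0, 9 of the genes were called and 4 with DESeq2. For 4MPT against 2MPT over all cells, 0 were called, 4 with no filter on low counts (by edgeR), 2 with the graft site as a block, and 0 to 3 with 1 library left out. For PFC against HIP over all cells, 0 were called and 1, SCGN, was called when cells needed a human share over 0.9 or had under 0.10 mitochondrial UMIs, with the dual reference, or with no filter on low counts. For 4MPT against 2MPT in glutamatergic-like cells, 1 was called, 0 without the cells of highest Scrublet score, with cells classed 1 by 1 or with no filter, and 0 to 2 with 1 library left out. In intermediate-progenitor-like cells 1 was called, 0 with a human share over 0.9, the dual reference, resolution 1.6, no integration, cells classed 1 by 1 or DESeq2, and 0 to 1 with 1 library left out. For intermediate-progenitor-like against glutamatergic-like cells, 1 was called, 3 at resolution 1.6, 2 with cells classed 1 by 1 and 2 with D0 in the fit. All other counts kept to within 1.5 times of the reported count.

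Of 162 levels, 158 stayed within their interval at the stricter human share, 158 at the stricter mitochondrial limit, 161 with over 1000 UMIs per cell and 155 without the cells of highest Scrublet score. Of 162 shares, 119 stayed within their interval when thinned to 2000 UMIs and 116 without thinning. Keeping the clusters with 2 close marker lists in their highest class, and the levels in those clusters, were added after the data had been seen. The graft site as a block was not run against D0, which has no site. Leaving out a library was not run for PFC against HIP, which leaves no residual degrees of freedom. By replicate number, no paired analysis was possible because each condition has 1 library. The graft site as a block, given above, pairs the stages by site.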
